A study of Mus musculus with 5 samples.

Results

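Expression was compared between 2 Foxp3-bearing cultures of mouse CD4 T cells, Th1reg and iTreg. The members were chosen by sample title, a rule that uses no measured value. They are 2 of the 5 samples of the series, with 1 array each. The comparison and its gene lists were, however, chosen with earlier results of these data known. Both cultures began as naive CD4 T cells from the spleen of C57BL/6 mice, and both spent their last 4 days in the same medium, which held antibodies to CD3 and CD28, antibodies that block IFN-gamma and IL-4, IL-2 and TGF-beta. Th1reg cells reached that medium after 4 days as Th1 cells (CD3 and CD28 stimulation, IL-2, IL-12 and an antibody to IL-4) and 4 days of rest (IL-2 with IFN-gamma and IL-4 blocked, no CD3 or CD28 stimulation), which makes 12 days of culture. iTreg cells went into it directly from the naive state, which makes 4 days. The Th1 phase, IL-12, the rest, the added days and the second stimulation therefore cannot be told apart in this comparison. The other 3 arrays are given beside the pair where they help to place a level: Th1 (4 days), rested (the Th1 cells after rest, 8 days) and Th1+TGFb (Th1 cells moved without rest into the TGF-beta medium, 8 days). Nothing in the labels says how many mice or wells went into a sample or names a sort for Foxp3. Of the purpose, the labels say no more than that mRNA was profiled in CD4 T cells cultured in different ways.

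Foxp3 is the transcription factor that defines regulatory T cells (Tregs), the CD4 T cells that restrain other immune cells. Naive CD4 T cells can be driven to express it in culture by T cell receptor stimulation with TGF-beta and IL-2, and the product is called an induced Treg (iTreg). Th1 cells are the CD4 effector cells that IL-12 and IFN-gamma favour; their defining factor is T-bet, made from Tbx21, and their defining product is IFN-gamma, made from Ifng. Klf2 is a zinc finger factor of resting T cells that drives the gene for the sphingosine-1-phosphate receptor S1pr1, with which such cells leave lymph nodes.

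The labelled cell type was checked first: all 19 genes of the T cell identity list, Cd4, Cd3e, Cd3d and Thy1 among them, were well above background on Th1reg and on iTreg. Of the probes, 45.2% were well above background on the Th1reg array and 48.0% on the iTreg array, and the 75th percentile of signal was 307 and 271 intensity units on them. A level below is the log2 of a probe's signal over that percentile, so that 0 is the 75th percentile of the array and 1 unit is 2-fold, and a difference is the Th1reg level minus the iTreg level. Levels of different genes come from different probes and are not set against each other. With 1 array each there is no replicate check, no test and no p-value; a gene is called higher or lower where the 2 arrays lie 2-fold or more apart. Repeat spots of a probe on the same array give a technical SD of 0.0865 log2 units for a difference, and of 0.254 where the signal was under 100, which holds nothing of the variation between cultures. A gene too dim to be well above background on one array of the pair has only a limit for its fold, given with the words at least. Where that limit is below 2-fold, the gene is counted as under 2-fold in the lists, though its fold may be larger. RNA was taken from whole cultures, so a lower share of cells of a kind and less RNA per cell cannot be told apart for any gene below.

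Of 13183 genes that were well above background on at least 1 of the pair, 2072 were higher in Th1reg (15.7%) and 1597 lower (12.1%), or 27.8% in either direction. Among the 11502 genes measured on both arrays, the counts were 1737 higher (15.1%), 996 lower (8.66%) and 2733 in either direction (23.8%). The median difference over all 13183 genes was 0.28, so a gene or a list at 0.28 moved with the bulk of the transcriptome. Counts of list members below are read against the shares of 15.7% higher and 12.1% lower, unless another share is given. The split depends on the scaling: higher genes made up 56.5% of those called, but 31.0% when the percentile was taken over probes well above background on all 5 arrays, 45.5% after a loess fit on brightness and 67.1% after normexp background correction. Differences of 10-fold or more were found in 132 genes that were higher in Th1reg and 75 that were lower. Over 10725 genes measured on all 5 arrays, Pearson's r across genes was 0.936 between Th1reg and iTreg, 0.964 between Th1reg and Th1, 0.943 between Th1reg and Th1+TGFb, and 0.861 between Th1reg and rested; genes are not independent replicates and these are descriptions.

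**Figure D1:**
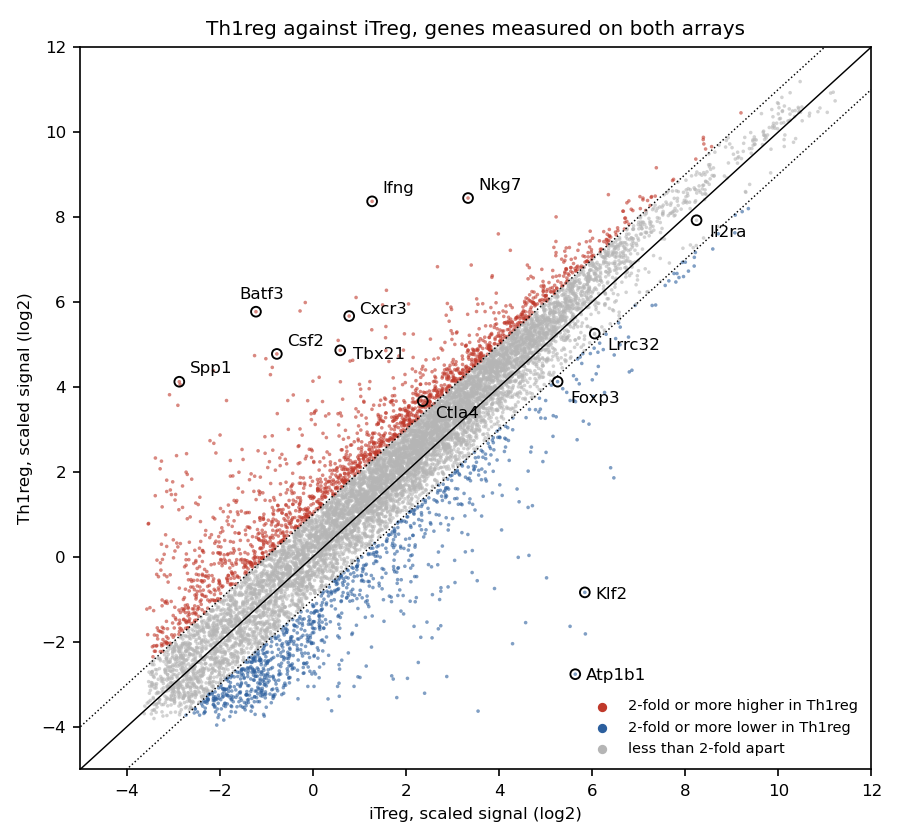
Scaled signal (log2) of 11502 genes on the Th1reg array (vertical) against the iTreg array (horizontal), 1 point per gene, with the line of equal level and dotted lines at 2-fold. Circled genes include Ifng, Nkg7, Cxcr3 and Tbx21 far above the lines, Klf2 and Atp1b1 far below, Foxp3 just below the lower 2-fold line, and Lrrc32 and Il2ra between the lines on the lower side.

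Foxp3 had a level of 4.12 on the Th1reg array and 5.26 on the iTreg array, and it was not well above background on the Th1, rested or Th1+TGFb arrays. It was thus measured in the pair and in no other culture, and it was 2.20-fold lower in Th1reg, with a difference of -1.14 that ranged from -1.63 to -1.08 over the 11 processing alternatives. Lrrc32, whose protein GARP holds latent TGF-beta at the cell surface, had levels of 5.25 in Th1reg and 6.05 in iTreg, against 1.35 in Th1, 1.52 in rested and 0.61 in Th1+TGFb cells. The pair was high and the other 3 arrays were low for this gene. Nt5e, which encodes CD73, an enzyme that makes adenosine outside the cell, had levels of 3.84 in Th1reg, 4.71 in iTreg, -1.13 in Th1, 1.12 in rested and 3.26 in Th1+TGFb cells. Lrrc32 and Nt5e differed by less than 2-fold within the pair, at -0.80 and -0.88. Il2ra, the high-affinity IL-2 receptor chain CD25, had levels of 7.92 in Th1reg and 8.24 in iTreg, which was near its 8.03 in Th1 and above its 5.07 in rested cells.

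The Treg signature list, 26 members with a value, held 11 genes that were higher in Th1reg, 4 that were lower and 11 under 2-fold; the shares of 42.3% and 15.4% stood beside 15.7% and 12.1% of all genes. Its median difference of 0.63 stood beside 0.28 for all genes. These figures count bounds at their limit. Over the 22 members measured on both arrays, 7 were higher and 4 lower. Their median was 0.12, below the 0.31 of all genes measured on both arrays. The lower genes were Foxp3 itself, Ikzf2 (2.89-fold), which encodes the factor Helios, Nrp1 (4.98-fold), the semaphorin receptor neuropilin-1, and Gpr83 (3.37-fold), a G protein-coupled receptor used as a Treg marker. The Th1reg level of Gpr83, -3.17, lay near the lowest measurable level of -3.96. Over the alternatives the difference was as small as -0.91 for Gpr83 and -0.84 for Ikzf2, short of 2-fold. Ikzf4, which encodes Eos, a partner of Foxp3 in repression, and Lrig1 lay just under 2-fold on the same side, at -0.84 and -0.85. On the higher side, Ctla4, an inhibitory receptor of Tregs, had levels of 3.66 in Th1reg and 2.36 in iTreg and was 2.47-fold higher in Th1reg, but with 4.51 in Th1 and 4.37 in Th1+TGFb cells it was higher still on arrays where Foxp3 was not well above background. Tnfrsf18 (GITR) was 2.80-fold higher and Tnfrsf9 (4-1BB) 7.82-fold higher by its brightest probe, while its other probe gave a difference of 1.12. Ebi3, a subunit shared by the cytokines IL-27 and IL-35, was 8.34-fold higher, and Il1rl1, the receptor for IL-33, 5.71-fold higher. Tigit, an inhibitory receptor, was at least 15.4-fold higher and Fgl2, a secreted fibrinogen-like protein, at least 16.7-fold higher. The probe for Il10, an anti-inflammatory cytokine gene, was not well above background in the pair, though it had levels of 1.67 in Th1 and 2.03 in Th1+TGFb cells. The balance of this list moved with the scaling: 7 higher against 9 lower after the loess fit, and 8 higher against 9 lower with quantile normalization or with the percentile over probes well above background on all 5 arrays.

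**Figure D2:**
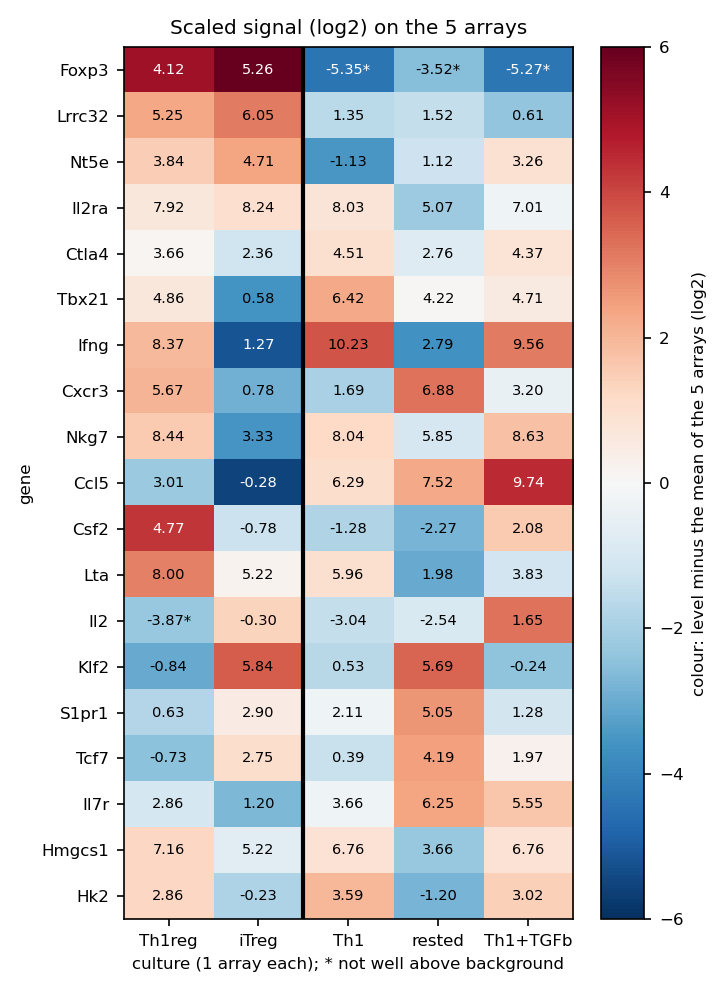
Levels (scaled signal, log2, printed in each cell) of 19 genes on the 5 arrays, with Th1reg and iTreg left of the black line and the other cultures right of it. Colour is the level minus the mean of the 5 arrays for that gene, so it is read along a row, and an asterisk marks a value not well above background; Foxp3 is measured in the pair alone, while Tbx21, Ifng, Nkg7 and Klf2 set Th1reg apart from iTreg.

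Of the 28 members of the Th1 programme with a value, 21 were higher in Th1reg, 1 was lower and 6 were under 2-fold. Its median difference was 2.30, and 19 to 23 members were higher under the alternatives. Tbx21 had levels of 4.86 in Th1reg and 0.58 in iTreg, against 6.42 in Th1, 4.22 in rested and 4.71 in Th1+TGFb cells. The iTreg array alone was low, and Tbx21 was 19.4-fold higher in Th1reg. Ifng had levels of 8.37 in Th1reg and 1.27 in iTreg, 10.23 in Th1, 2.79 in rested and 9.56 in Th1+TGFb cells. It was 137-fold higher in Th1reg, the largest measured difference in that direction with predicted genes, Y-linked genes and Xist left out. Ifng levels were low on both iTreg and rested arrays. Cxcr3, the chemokine receptor that Th1 cells use to enter inflamed tissue, had levels of 5.67 in Th1reg and 0.78 in iTreg, with 1.69 in Th1 and 6.88 in rested cells. It was 29.6-fold higher in Th1reg, and within the Th1-derived cultures its order was unlike that of Ifng, with rested cells the highest and Th1 cells the lowest. Nkg7, a granule membrane protein of cytotoxic and Th1 cells, had levels of 8.44 in Th1reg and 3.33 in iTreg and was 34.6-fold higher.

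Fasl, the ligand of the death receptor Fas, was 17.6-fold higher in Th1reg, and Stat4, which carries the IL-12 signal, 5.90-fold higher. The IL-12 receptor chains were higher as well, Il12rb1 by 12.1-fold and Il12rb2 by 2.81-fold. Ly6c1, a surface antigen of activated and memory T cells, was 17.8-fold higher by its brightest probe, while its other probe gave -1.25, and its near-identical copy Ly6c2 had no matched probe, so its value is uncertain. The exception was Il18r1, a chain of the IL-18 receptor, with levels of 3.29 in Th1reg and 5.23 in iTreg, which was 3.82-fold lower in Th1reg. Eomes, a T-box factor related to T-bet, differed by 0.50, under 2-fold. Havcr2 (TIM-3) was at background in the pair.

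Because the genes of the Th1 list were high together and T-bet binds a T-box half-site, the promoter windows of 2 of its members with large differences are shown, taken from RefSeq (GRCm38.p6) as 250 bases before to 50 bases after the gene's start. The letters GTGTGA were searched on both strands, and a match stands in capitals.
Ifng (chr10:118440796-118441095, plus strand): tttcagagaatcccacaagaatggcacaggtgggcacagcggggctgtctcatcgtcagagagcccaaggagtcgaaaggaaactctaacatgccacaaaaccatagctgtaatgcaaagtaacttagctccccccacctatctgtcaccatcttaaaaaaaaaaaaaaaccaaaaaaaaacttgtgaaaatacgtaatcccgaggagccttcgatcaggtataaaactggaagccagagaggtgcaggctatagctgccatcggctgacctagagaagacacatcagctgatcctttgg
Cxcr3 (chrX:101734098-101734397, minus strand): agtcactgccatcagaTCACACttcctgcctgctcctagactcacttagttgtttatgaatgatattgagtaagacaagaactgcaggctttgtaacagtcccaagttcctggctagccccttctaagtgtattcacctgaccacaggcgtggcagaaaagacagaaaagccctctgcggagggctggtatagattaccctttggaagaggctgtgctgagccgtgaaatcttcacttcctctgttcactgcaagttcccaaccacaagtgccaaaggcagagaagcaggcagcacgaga
The Cxcr3 window held 1 match, 234 bases before the start and on the opposite strand, and the Ifng window held none. The letters were found in 5 of the 23 members with a window (Il12rb2, Cxcr3, Xcl1, Nkg7 and Ly6c1) and in 16.4% of all 27025 genes with a window (14.5% of 32851 windows). A match is a stretch of letters and says nothing of binding.

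Cytokine genes spanned differences of -3.58 to 7.10. Of 25 members with a value, 16 were higher in Th1reg (64%), 4 were lower (16%) and 5 were under 2-fold, with a median of 1.54. Among all genes, 15.7% were higher and 12.1% lower. Csf2, which encodes GM-CSF, a growth factor for myeloid cells, had levels of 4.77 in Th1reg, -0.78 in iTreg, -1.28 in Th1, -2.27 in rested and 2.08 in Th1+TGFb cells. Th1reg was the highest of the 5 arrays for Csf2, above the Th1 culture it came from, and the gene was 46.9-fold higher than in iTreg. Lta, which encodes lymphotoxin-alpha, was likewise highest in Th1reg, with 8.0 there, 5.22 in iTreg, 5.96 in Th1, 1.98 in rested and 3.83 in Th1+TGFb cells, and was 6.85-fold higher than in iTreg. Penk, the precursor of the enkephalin peptides, was 67.0-fold higher, with levels of 5.79 in Th1reg and -0.28 in iTreg. Tnfsf11 (RANKL), Csf1 (M-CSF) and Ebi3 were 10.2-fold, 8.12-fold and 8.34-fold higher. Genes for TGF-beta ligands were also higher, Tgfb1 by 2.83-fold and Tgfb3 by at least 9.67-fold.

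The 4 lower cytokine genes were Il2, Il17f, Tnfsf8 and Il3. Il2 had a level of -0.30 in iTreg and was not well above background in Th1reg, so that it was at least 11.9-fold lower there; IL-2 protein was added to both cultures. Il17f, a Th17 cytokine, was at least 7.02-fold lower, with -1.15 in iTreg and no value well above background on the other 4 arrays. Tnfsf8 (CD30 ligand) was 2.62-fold lower and Il3 2.32-fold lower. Il4, whose protein was blocked in both cultures, had a level of -1.86 in Th1reg and was not well above background in iTreg or on the other arrays, which makes it at least 3.51-fold higher.

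Among 22 chemokine and chemokine receptor genes with a value, 11 were higher in Th1reg (50%), 4 were lower (18.2%) and 7 were under 2-fold. The median was 1.0, and 15.7% of all genes were higher and 12.1% lower. The ligands led the higher side. Ccl3 and Ccl4, inflammatory chemokines that attract leukocytes, had levels of 5.93 and 7.60 in Th1reg and 1.49 and 3.98 in iTreg, and were 21.6-fold and 12.3-fold higher. Ccl5, a further inflammatory chemokine, was 9.77-fold higher, yet its Th1reg level of 3.01 was the lowest of the 4 Th1-derived arrays, which had 6.29 in Th1, 7.52 in rested and 9.74 in Th1+TGFb cells. Ccl1, the ligand of Ccr8, had levels of 6.87 in Th1reg, 3.40 in iTreg and 4.86 in Th1+TGFb cells, and was not well above background in Th1 or rested cells. It was measured on the 3 arrays of cultures that had been in the TGF-beta medium and was 11.1-fold higher in Th1reg than in iTreg. All 4 lower genes were receptors. They were led by the bounds for Cxcr4, the receptor for Cxcl12, at least 6.89-fold, and Ccr9, a receptor for homing to the small intestine, at least 3.89-fold. The measured differences were 3.71-fold for Cx3cr1 and 2.29-fold for Cxcr5, a receptor for homing to B cell follicles. The Th1reg level of Cxcr5, -3.34, lay near the lowest measurable level of -3.96, and its difference was as small as -0.47 over the alternatives.

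Genes of cytotoxic granules were higher in Th1reg in 10 of 18 members with a value, with 1 lower and 7 under 2-fold and a median of 1.12. Gzma, a granzyme, had a level of 3.18 in Th1reg and was not well above background in iTreg, which makes it at least 97.6-fold higher; it had 1.03 in Th1, 4.89 in rested and 10.71 in Th1+TGFb cells. Gzmb had levels of 5.34 in Th1reg and 1.26 in iTreg, against 9.50 in Th1, 5.11 in rested and 9.46 in Th1+TGFb cells, and was 16.9-fold higher in Th1reg. On Th1reg, both granzyme genes stood between the iTreg and the Th1+TGFb array. Gzmc was 35.4-fold higher, although granzymes c to g are close copies and a probe could bind more than 1 of them. Cst7 (cystatin F), Srgn (the granule proteoglycan serglycin) and Prf1 (perforin) were 23.5-fold, 4.79-fold and 3.45-fold higher. The lower member was Gzmk, at 2.06-fold. Its Th1reg level of -3.59 lay near the lowest measurable level of -3.96, and it kept the 2-fold call in 6 of 11 alternatives.

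Killer-cell lectin receptors, which natural killer cells and some T cells carry, had 10 members with a value, of which 9 were higher in Th1reg. The other, Klrb1, was not well above background in Th1reg and was at least 1.97-fold lower there, so it was not called. The median was 2.61, which counts bounds at their limit. The 3 members measured on both arrays were all higher. Klrc1, which encodes the inhibitory chain NKG2A, had levels of 4.46 in Th1reg, -0.88 in iTreg, 3.60 in Th1, 2.39 in rested and 6.13 in Th1+TGFb cells. Its partner Klrd1 (CD94) had 3.79 in Th1reg and 1.71 in iTreg. Klrc1 was 40.3-fold and Klrd1 4.23-fold higher in Th1reg. Klrk1, which encodes the activating receptor NKG2D, was at least 6.33-fold higher, and the Ly49 genes Klra5, Klra8 and Klra9 at least 35-fold, 14.8-fold and 5.91-fold. A further Ly49 gene, Klra4, a member of another list, went the other way, with levels of -2.84 in Th1reg and -1.04 in iTreg, 3.50-fold lower in Th1reg. Members of these families are close copies, and probes may bind more than 1 of them. The natural killer cell genes Ncr1 and Klrb1c were at background in the pair. The summed level of the CD8 T and NK cell markers, in multiples of the 75th percentile, was 2.85 in Th1reg and 2.54 in iTreg. That marker list shares Klra8 and Klri2 with the lectin receptors, so the sum is not a separate check. Its members moved both ways: Klra8 and Klri2 were higher in Th1reg, while Cd8a, Cd8b1 and Klra4 were lower.

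Genes of quiescence and lymphoid homing were lower in Th1reg in 21 of 28 members with a value, higher in 2 and under 2-fold in 5, with a median of -1.47, and 20 to 23 members were lower under the alternatives. Klf2 had levels of -0.84 in Th1reg, 5.84 in iTreg, 0.53 in Th1, 5.69 in rested and -0.24 in Th1+TGFb cells. iTreg stood with rested cells at the high end, and Th1reg with Th1+TGFb and Th1 cells at the low end; Klf2 was 103-fold lower in Th1reg than in iTreg. Klf3, a related factor, was 69.6-fold lower with both of its probes far apart the same way. S1pr1 had levels of 0.63 in Th1reg and 2.90 in iTreg, a 4.84-fold difference on the lower side.

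Tcf7, which encodes TCF-1, a factor of naive and memory T cells, had levels of -0.73 in Th1reg, 2.75 in iTreg, 0.39 in Th1, 4.19 in rested and 1.97 in Th1+TGFb cells, and was 11.2-fold lower in Th1reg. Both chains of the IL-6 receptor were lower, Il6ra by 19.7-fold and Il6st (gp130) by 9.56-fold. Ccr7, the receptor that guides naive T cells to lymph nodes, did not follow the list, with 6.78 in Th1reg and 7.14 in iTreg. The 2 higher members were Cd44, an adhesion receptor that marks antigen-experienced T cells, 4.70-fold (its other probes gave differences of 2.73 and 0.64), and Il7r, the IL-7 receptor chain, 3.16-fold. Il7r had a level of 2.86 in Th1reg, while its 1.20 in iTreg was the lowest of the 5 arrays and its 6.25 in rested cells the highest.

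The promoter window of Klf2 is shown because its difference was large and MEF2 factors are known regulators of this gene; the MEF2 core, CTA and TAG with any 4 bases between them, was searched in all windows and the match is in capitals.
Klf2 (chr8:72318812-72319111, plus strand, RefSeq GRCm38.p6): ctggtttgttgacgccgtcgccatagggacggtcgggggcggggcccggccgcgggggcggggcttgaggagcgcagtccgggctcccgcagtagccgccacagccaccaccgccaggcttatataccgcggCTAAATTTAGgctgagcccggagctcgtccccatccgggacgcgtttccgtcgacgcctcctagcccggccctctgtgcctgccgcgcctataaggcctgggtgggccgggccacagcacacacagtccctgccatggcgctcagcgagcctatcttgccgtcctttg
The match lies 118 bases before the start. Klf2 was the 1 member of 25 with a window that held this motif, which occurs in 4.23% of all genes with a window (3.69% of windows).

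Of 29 activation genes with a value, 14 were higher in Th1reg, 2 were lower and 13 were under 2-fold, with a median of 0.94. Dusp4 and Dusp5, phosphatases that switch off MAP kinases and are induced by them, were 5.82-fold and 3.82-fold higher. Egr1, an immediate-early factor, had levels of 3.92 in Th1reg, 2.20 in iTreg, 3.76 in Th1 and 3.73 in Th1+TGFb cells. It was not well above background in rested cells, the 1 culture without CD3 and CD28 antibodies in its last 4 days. It was 3.29-fold higher in Th1reg. Irf8 and Fosl2 were 2.96-fold and 4.43-fold higher. Jun was 3.14-fold lower, and Myc differed by -0.11. Among 13 inhibitory receptors and related genes with a value, 7 were higher, 2 were lower and 4 were under 2-fold, and 5 were higher and 4 lower with the percentile over probes well above background on all 5 arrays. Besides Tigit and Ctla4, the higher genes were Lilrb4a (10.4-fold), Pdcd1lg2 (7.47-fold), which encodes PD-L2, Cd200 (7.36-fold), Lag3 (4.41-fold) and Pdcd1 (2.13-fold), which encodes PD-1. The lower genes were Vsir (VISTA), 2.08-fold by its brightest probe and -0.01 by its other, and Cd160, which lay at the limit of 2-fold.

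Both cultures had been exposed to TGF-beta. Of 20 genes of the TGF-beta response with a value, 4 were higher in Th1reg (20%), 5 were lower (25%) and 11 were under 2-fold. Their median was -0.46, and 3 to 8 members were lower under the alternatives. The shares among all genes were 15.7% higher and 12.1% lower. Id3, an inhibitor of E-protein factors that TGF-beta induces in T cells, had levels of -0.61 in Th1reg, 3.05 in iTreg, 2.51 in Th1, 1.41 in rested and -0.26 in Th1+TGFb cells. It was 12.6-fold lower in Th1reg, and low also in Th1+TGFb cells. Ldlrad4, Smad6 and Smad7, which damp TGF-beta signalling, were lower: Ldlrad4 6.67-fold, Smad7 2.08-fold and Smad6 at least 3.74-fold. The receptor gene Tgfbr1 differed by -0.76 and Skil, an induced repressor of the pathway, by 0.01. Besides Tgfb1 and Tgfb3, Cdkn1a, which encodes the cell cycle inhibitor p21, was 4.97-fold higher. Of 18 targets of IL-2 and STAT5, 3 were higher (16.7%), 2 were lower (11.1%) and 13 were under 2-fold, with a median of -0.22. These shares were near the 15.7% and 12.1% of all genes, but 16 of the 18 had a signal of 1000 or more. Among all genes that bright, 16.2% were higher and 3.94% lower, with a median of 0.45. The balance moved with the scaling, to 2 higher and 5 lower with the percentile over probes well above background on all 5 arrays, quantile normalization or loess, and to 5 higher and 1 lower with the deposited value table. The largest differences were those of Lta and of Bcl2l1, which encodes the survival protein Bcl-xL and was 3.05-fold higher.

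Lineage genes of Th2, Th17 and follicular helper cells were lower in 7 of 16 members with a value and higher in 3, with a median of -0.17. Ahr, the aryl hydrocarbon receptor, was 2.81-fold lower and Maf 2.13-fold lower. Bcl6, the factor of follicular helper cells, had levels of -0.71 in Th1reg, 2.90 in iTreg, 0.61 in Th1, 3.29 in rested and 3.58 in Th1+TGFb cells, was lowest in Th1reg and was 12.2-fold lower there than in iTreg. The higher genes were Rora, 3.99-fold, Batf, 2.47-fold, and Il4. Gata3, the Th2 factor, differed by -0.14, and Il17a, Il5, Il13 and Il22 were not well above background on either array.

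Interferon-regulated genes were mixed. Of 25 genes of the type I interferon response with a value, 9 were higher in Th1reg (36%), 2 were lower (8%) and 14 were under 2-fold, with a median of 0.37. Of all genes, 15.7% were higher and 12.1% lower. With the percentile over probes well above background on all 5 arrays, 8 members of the list were higher and 6 lower. Ly6a, which encodes the stem cell antigen Sca-1, was 36.2-fold higher, with levels of 6.10 in Th1reg, 0.92 in iTreg, 8.80 in Th1, 7.01 in rested and 8.59 in Th1+TGFb cells. Oas3 was 9.03-fold and Ifi27 6.66-fold higher, while Rtp4 was 2.70-fold lower and Ifit3 at least 3.43-fold lower. The iTreg level of Oas3, -3.24, lay near the lowest measurable level of -3.67, and its difference fell as low as 1.74 over the alternatives. Of the 13 GTPases that IFN-gamma induces, 12 were under 2-fold and 1, Gbp7, was 3.22-fold higher, with a median of 0.30 beside 0.28 for all genes. Genes of MHC and antigen processing were higher in 7 of 14 members with a value and lower in 1, and 4 were higher and 2 lower with quantile normalization, loess or the percentile over probes well above background on all 5 arrays. The class II chain gene H2-Ab1 had levels of 3.37 in Th1reg, -0.77 in iTreg and 5.13 in Th1 cells and was 17.6-fold higher in Th1reg, while the class II chaperone Cd74 was 2.76-fold lower. Integrin genes held 4 higher (30.8%) and 2 lower (15.4%) members of 13, beside 15.7% and 12.1% of all genes. Itga6, a laminin receptor chain, was lower at 5.52-fold. The integrin counts were 1 higher and 4 lower with the percentile over probes well above background on all 5 arrays. With quantile normalization or loess they were 4 higher and 5 lower.

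Genes with bright probes were shifted towards Th1reg. Where the mean signal of the pair was 1000 or more, 16.2% of 5786 genes were higher in Th1reg and 3.94% lower, with a median difference of 0.45. Under a signal of 50, 9.18% of 1852 genes were higher and 27.5% lower, with a median of -0.42. Over all 28654 probes with a value, named or not, 3482 were higher in Th1reg (12.2%) and 5609 lower (19.6%), or 31.7% in either direction. The lists of metabolism and cell division are made up mainly of bright genes, so their counts are read against 16.2%; the part of brightness in these results was not tested.

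**Figure D3:**
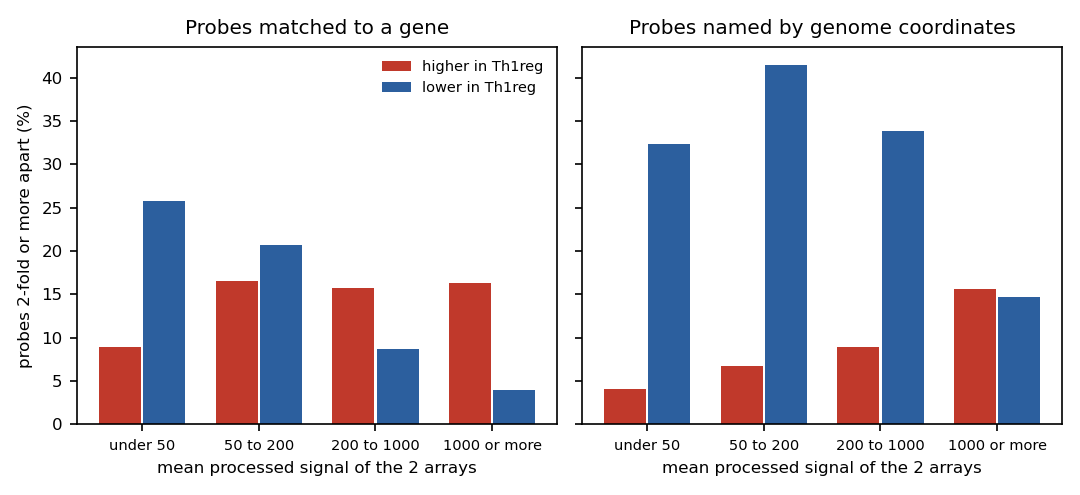
Share of probes (%) that were 2-fold or more higher (red) or lower (blue) in Th1reg than in iTreg, by the mean processed signal of the pair (intensity units), for probes matched to a gene (left) and probes named only by genome coordinates (right). The share of lower probes is 25.8% among gene-matched probes under a signal of 50 and 3.89% at 1000 or more.

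Sterol synthesis genes were higher in Th1reg in 18 of 24 members, with none lower, 6 under 2-fold and a median of 1.21; 18 of the 24 had a signal of 1000 or more. Hmgcs1, which opens the mevalonate pathway, had levels of 7.16 in Th1reg, 5.22 in iTreg, 6.76 in Th1, 3.66 in rested and 6.76 in Th1+TGFb cells. The rested array was lowest and iTreg next, and Hmgcs1 was 3.83-fold higher in Th1reg. Pmvk and Mvk, kinases of the same pathway, were 3.79-fold and 3.48-fold higher. The folds were small and alike, and 10 members were higher after the loess fit or with the percentile over probes well above background on all 5 arrays. The promoter window of Hmgcs1 is shown because SREBP factors control these genes through sterol elements; the letters CACNCCA were searched on both strands and the match is in capitals.
Hmgcs1 (chr13:119690101-119690400, plus strand, RefSeq GRCm38.p6): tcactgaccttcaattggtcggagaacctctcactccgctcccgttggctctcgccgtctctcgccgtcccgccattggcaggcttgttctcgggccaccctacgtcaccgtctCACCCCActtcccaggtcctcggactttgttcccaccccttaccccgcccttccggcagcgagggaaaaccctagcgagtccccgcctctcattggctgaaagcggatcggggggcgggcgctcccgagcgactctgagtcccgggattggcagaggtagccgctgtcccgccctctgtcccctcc
The match lies 136 bases before the start. The letters were found in 4 of 16 members with a window (Hmgcs1, Msmo1, Insig1 and Srebf2) and in 20.6% of all genes with a window (18.4% of windows).

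Glycolysis genes were higher in Th1reg in 14 of 23 members with a value, with none lower and a median of 1.11; 20 of the 24 genes of this list had a signal of 1000 or more, and 9 members were higher and 1 lower after the loess fit. Hk2, the inducible hexokinase, had levels of 2.86 in Th1reg, -0.23 in iTreg, 3.59 in Th1, -1.20 in rested and 3.02 in Th1+TGFb cells. Th1reg stood with Th1 and Th1+TGFb cells and iTreg with rested cells, an 8.55-fold difference. Slc16a3, the lactate exporter MCT4, was 4.96-fold higher, Bnip3, a hypoxia-induced mitophagy receptor, 5.22-fold, and Hif1a, the hypoxia-inducible factor, 3.96-fold. Pdk1, a kinase that keeps pyruvate out of mitochondria, differed by -0.77.

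Cell cycle genes lay mostly under 2-fold. Of 28 members with a value, 6 were higher in Th1reg, none was lower and 22 were under 2-fold, with a median of 0.57 beside 0.45 for genes of a signal of 1000 or more. The higher genes were Cdk1 (2.73-fold), Aurka (2.62-fold), Ccnb1 (2.42-fold), Plk1 (2.34-fold), Ccna2 (2.04-fold) and Ccnb2 (2.02-fold), and 2 members were higher after the loess fit. The probe for Cdk1 was dim, with a level of -3.23 in iTreg, and its difference ranged from 0.53 to 1.77 over the alternatives. Mki67, the proliferation marker, had levels of 6.88 in Th1reg and 6.84 in iTreg, against 3.34 in rested cells. After the loess fit, none of the 19 T cell identity genes was higher and 3 were lower. Of the 19, 15 had a signal of 1000 or more, a range in which 16.2% of all genes were higher and 3.94% lower. In the main setting 3 were higher (15.8%), 2 were lower (10.5%) and 14 were under 2-fold, beside 15.7% and 12.1% of all genes. The lower ones were Trat1, a T cell receptor-associated adaptor, 18.5-fold, with -1.90 in Th1reg and 2.32 in iTreg, and Cd27, a costimulatory receptor, 2.18-fold.

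**Figure D4:**
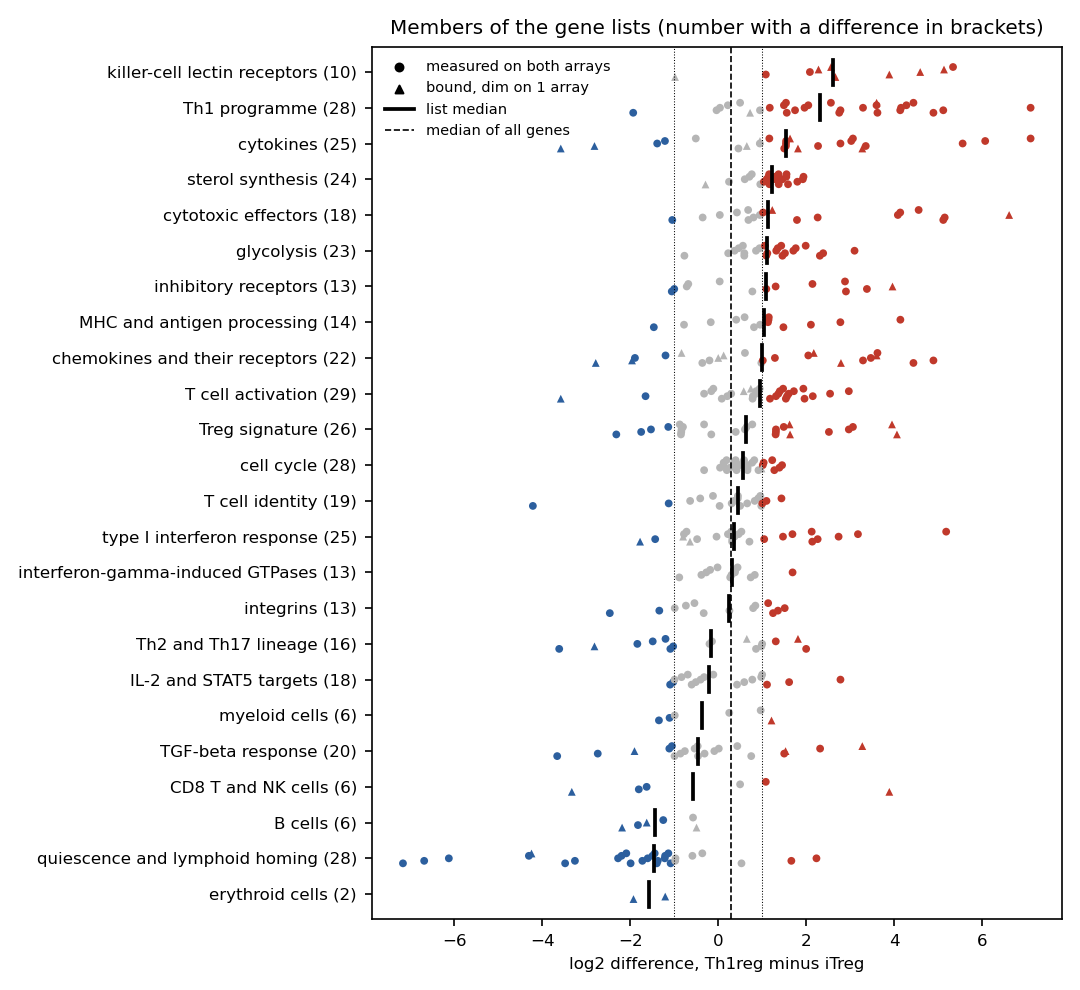
Difference between Th1reg and iTreg (log2, horizontal) for each member of 24 gene lists, 1 point per gene, sorted by list median (black bar), with the median of all genes as a dashed line and 2-fold as dotted lines. Circles are genes measured on both arrays and triangles are bounds. The killer-cell lectin receptor and Th1 programme lists lie farthest right, with medians of 2.61 and 2.30, and the quiescence list has a median of -1.47. Most lectin receptor values are bounds. Over members measured on both arrays, the median was 2.08 for the lectin receptors (3 members) and 2.30 for the Th1 programme.

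Away from the lists, the measured genes with the largest differences were led by Ifng on the higher side and Atp1b1 on the lower. Batf3, a basic leucine zipper factor, had levels of 5.77 in Th1reg, -1.23 in iTreg, 6.27 in Th1, 2.60 in rested and 6.70 in Th1+TGFb cells. It was 128-fold higher in Th1reg than in iTreg, where it was lowest. Spp1, which encodes the secreted protein osteopontin, was 128-fold higher, with levels of 4.12 in Th1reg, -2.88 in iTreg, 1.19 in Th1, -2.47 in rested and 6.55 in Th1+TGFb cells. iTreg and rested cells were the low arrays for Spp1. Ttc39c was 120.4-fold higher, Cacna1s, a subunit of the skeletal muscle calcium channel, 119-fold, Plac8 92.0-fold and Lrrk1, a kinase, 88.7-fold. The iTreg levels of Spp1, Ttc39c, Cacna1s and Lrrk1 (-2.88, -2.86, -3.09 and -2.91) lay near the lowest measurable level of -3.67, so their folds are imprecise. Over the alternatives their differences fell as low as 5.54, 5.52, 5.29 and 4.92. Hic1, a transcriptional repressor, had levels of 4.73 in Th1reg, -1.26 in iTreg, 0.79 in Th1, -0.34 in rested and 5.43 in Th1+TGFb cells and was 63.7-fold higher. Slc16a11, a transporter of the monocarboxylate family, had levels of 2.32 in Th1reg and 3.35 in Th1+TGFb cells, against -3.39 in iTreg and -3.02 in Th1 cells, and was not well above background in rested cells. The 2 cultures that had been Th1 cells and then met TGF-beta were the high arrays for Slc16a11, and it was 52.5-fold higher in Th1reg than in iTreg. Its iTreg level was also near the lowest measurable level, and its difference fell as low as 4.00 over the alternatives.

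Among genes not well above background in iTreg, Stra6, a retinol transporter, was at least 101-fold higher, Pdpn, which encodes the membrane glycoprotein podoplanin, at least 72.5-fold, and Pparg, a lipid-sensing nuclear receptor, at least 29.6-fold. Tmem273 had a level of 1.88 in Th1reg and was not well above background on any of the other 4 arrays; it was at least 41.8-fold higher than in iTreg.

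On the lower side, Atp1b1, the beta subunit of the sodium pump, had levels of -2.77 in Th1reg, 5.64 in iTreg, -2.52 in Th1 and -0.46 in rested cells, and was not well above background in Th1+TGFb cells. iTreg alone was high, and Atp1b1 was 338-fold lower in Th1reg. This was the largest difference in the comparison with predicted genes, Y-linked genes and Xist left out. Pdlim4, a PDZ and LIM domain protein, followed with 204-fold, from levels of -1.82 in Th1reg and 5.85 in iTreg. Vipr1, a receptor for vasoactive intestinal peptide, was 145-fold lower by a probe whose Th1reg level of -3.64 lay near the lowest measurable level of -3.96, and its other probe, not well above background in Th1reg, set a limit of -2.74 or lower for the difference. Drc1, a component of the ciliary dynein regulatory complex, had levels of 1.86 in Th1reg and 6.47 in iTreg, against -2.10 in Th1 cells, and was not well above background in rested or Th1+TGFb cells. The pair was thus above the other 3 arrays, as for Foxp3, and Drc1 was 24.4-fold lower in Th1reg.

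Nsg2, Trib2, Sox4 and Pde2a were 80.8-fold, 51.8-fold, 48.9-fold and 45.8-fold lower in Th1reg. Sox4 had a Th1reg level of -3.21, near the lowest measurable level of -3.96, and its difference was as small as -3.81 over the alternatives. Trib2, a pseudokinase, had levels of -2.82 in Th1reg, 2.87 in iTreg, 3.03 in Th1, 2.90 in rested and 2.74 in Th1+TGFb cells, so that Th1reg alone was low. Cd24a, a surface glycoprotein of immature lymphocytes, was at least 70.1-fold lower, with 2.17 in iTreg. Dntt, which encodes terminal transferase, an enzyme of lymphocyte development, was at least 25.6-fold lower, with 1.28 in iTreg, 2.39 in Th1 and 2.60 in rested cells and no value well above background in Th1+TGFb cells. Dntt was thus measured in the cultures of 4 and 8 days except Th1+TGFb.

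**Figure D5:**
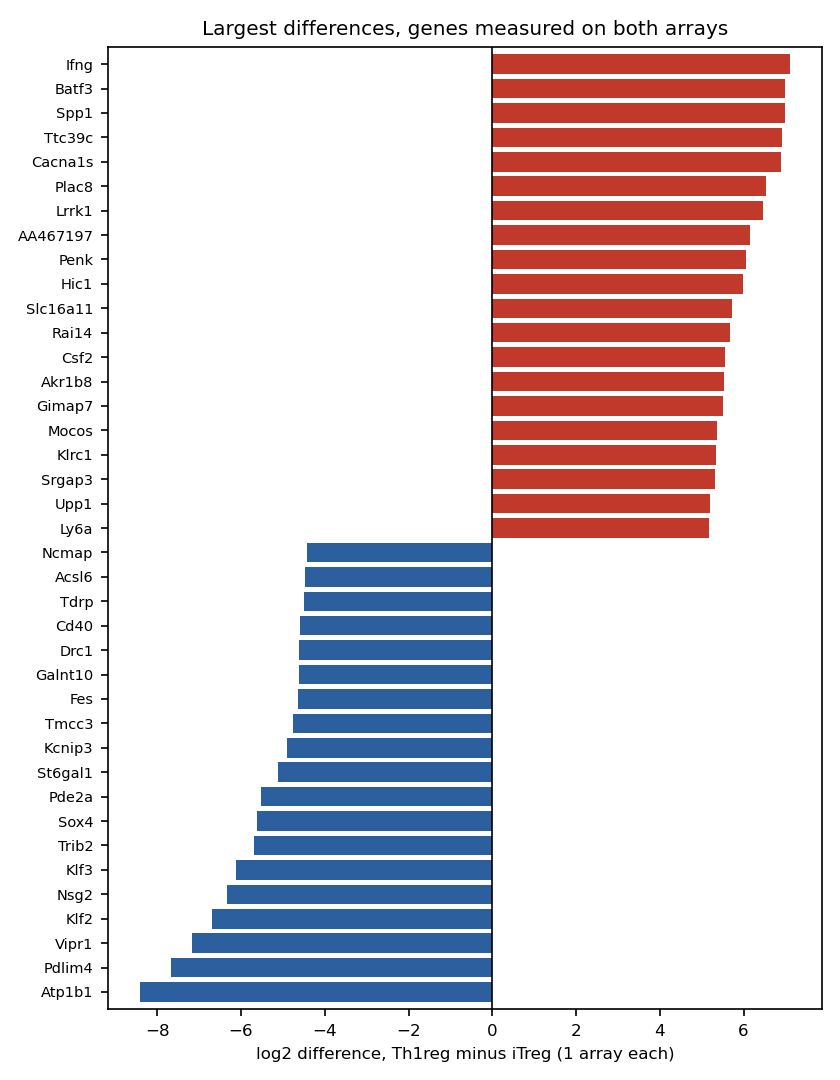
Difference between Th1reg and iTreg (log2, horizontal bars, 1 array each) for genes well above background on both arrays, namely the 20 with the largest difference on the higher side and 19 of the 20 with the largest on the lower. The bars run from Ifng at 7.10 to Atp1b1 at -8.40.

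Markers of other cell types were low in the pair with a few exceptions, and they did not all move one way. Of 21366 genes with a probe, 12252 were well above background in Th1reg and 12433 in iTreg. No B cell or erythroid marker had a mean signal of 1000 or more. Among all genes with a value and a signal under 50, 27.5% were lower in Th1reg. The B cell markers had 3 of 9 well above background in Th1reg and 6 of 9 in iTreg, with summed levels of 1.25 and 2.95 on these arrays; Cd79a and Pax5 were not well above background on either. The erythroid markers had 0 of 6 in Th1reg and 2 of 6 in iTreg, with summed levels of 0.252 and 0.474. The myeloid markers had 6 of 13 in Th1reg and 5 of 13 in iTreg, with summed levels of 396 and 902, nearly all from Siglech, Csf3r and Itgam, whose probes were bright on all 5 arrays. Neither array had a signal well above background for the myeloid genes Lyz1, Lyz2, S100a8 and S100a9. Cd8b1 was 3.09-fold lower in Th1reg, with a level of -1.10 in iTreg. The probes of Cd8a disagreed in size on the lower side: the brightest, with -0.29 in iTreg and no signal well above background in Th1reg, gave a limit of at least 10-fold, while a dimmer one, well above background on both arrays, gave a difference of -1.91, so no fold is given for the gene. The part of B, erythroid and CD8 T cells in the genes that were lower in Th1reg was not tested.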

How the data were processed

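RNA of 5 cultures was labelled with Cy3 and bound to 1-colour Agilent mouse arrays, 1 array per culture, all on 1 slide with 1 scan time. The authors deposited scanner output from Agilent Feature Extraction 10.7.1.1, whose processed signal is a background-subtracted intensity, per the file headers; the background flags come from the same deposited files. The deposited value table holds the same intensity divided by 1 constant per array (99.7% to 99.8% of probes within 0.01 log2 units), with column medians of 0.0693 for Th1reg, 0.0925 for iTreg, 0.0762 for Th1, 0.123 for rested and 0.103 for Th1+TGFb. Its scale and direction are thus known, and no source used here gives the choice of constants.

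Control spots and the 109 to 142 outlier spots per array were left out, the spots of a probe were averaged, and the log2 of each array's 75th percentile over non-control spots was subtracted. RefSeq accessions (GRCm38.p6 table) named 28331 of 55681 probes for 21368 genes, and a gene took the values of its brightest probe. Of the other probes of called genes, 89.1% went the same way and 61.0% were 2-fold apart the same way. A probe not well above background was raised, where lower, to the faintest signal that was well above background on its array (-3.96 on Th1reg, -3.67 on iTreg, scaled log2). The 8183 genes that were dim in both cultures were not compared. Python 3.11.15, pandas 2.3.3 and R 4.3.3 with limma 3.58.1 (normexp) were used, and the difference calculation was tested on simulated data.

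The comparison, its 24 gene lists and the members named were chosen with earlier results of these data known. The text draws on genes named by rule: Foxp3, Tbx21, Ifng, Klf2, Il10, Ctla4, Il2ra and Itgae, the 20 largest measured differences and 12 largest bounds each way, the 8 largest each way of each list (all members of lists of 10 or fewer) and cell type markers, leaving out predicted genes from the ranking. Gata3, Stat4, Il12rb1, Mki67 and the members named as not well above background or as holding a motif lie outside the rule and were chosen after their values were seen. A few genes that the rule names are not reported here. Itgae, Ly6c2, Klrc2, Klra3, Mx1, Mx2, Ighm, Hbb-bs and Ahsp had no matched probe. The files used here have no column of gene names or of mean signals, so naming by accession alone was the main setting and normexp (offset 50) was run on median signals.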

Additional observations from a re-analysis of the deposited data

How the results depend on the processing

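Of 300 named genes with a difference, 219 were called 2-fold apart; 171 kept that call and its direction under every one of 11 alternatives that gave them a value, 48 lost it under at least 1, and 0 reversed. The 2072 genes higher in Th1reg became 1091 with the percentile over probes well above background on all 5 arrays and 783 at 3-fold. The 1597 lower genes became 2430 with that percentile, 748 with normexp, 996 with only genes well above background on both arrays, 2652 with no filter and 791 at 3-fold. Without the filter the probe counts became 5295 higher and 9497 lower. The median of all genes moved by -0.34 with the percentile over probes well above background on all 5 arrays, -0.14 with their median, -0.17 with quantile normalization, -0.40 without the filter and -0.27 with loess; the loess fit and a percentile over probe averages were chosen after seeing the data. The erythroid median minus that of all genes was -1.84 and became 0.35 without the filter, where 4 more dim members entered. The median minus that of all genes also changed sign in some alternative for Treg signature (-0.19 to 0.62), integrins (-0.14 to 0.32), interferon-gamma-induced GTPases (-0.10 to 0.42) and T cell identity (-0.11 to 0.57). Naming by accession alone was the main setting, so it gave no alternative. No paired analysis was possible because each culture had 1 array and no test was made. Dim signals limit precision: 1681 genes had only a bound.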

Other observations

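Probes named only by genome coordinates were more often lower than higher in Th1reg. Of 6016 probes named only by genome coordinates that were well above background on an array of the pair, 6.38% were higher in Th1reg and 34.9% lower, with a median difference of -0.63, while 17305 gene-matched probes had 15.1% higher and 11.7% lower and a median of 0.26. The share lower was larger for coordinate-named probes in each range of brightness. Between signals of 50 and 200, 41.5% of 2188 coordinate-named probes and 20.7% of 3507 gene-matched probes were lower in Th1reg, and between 200 and 1000 the shares were 33.9% of 856 and 8.64% of 4397. At 1000 or more, 15.6% of 353 coordinate-named probes were higher and 14.7% lower. Probes with an AK accession, the prefix of full-length mouse cDNA clones, showed the same side: of 1137 with a value, 42 were higher and 585 lower, while of 360 with a NAP identifier 42 were higher and 29 lower. The transcripts behind these probes were not named here.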
